A study of Rattus norvegicus with 12 samples.

Results

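Cyclic nucleotide and G protein signalling genes were examined in the uterus of progesterone-treated and control rats. They were taken by symbol from the deposited gene tables: phosphodiesterases (Pde), adenylyl cyclases (Adcy), guanylyl cyclases (Gucy1 and Gucy2), protein kinase A subunits (Prkac and Prkar), protein kinases G (Prkg), regulators of G protein signalling (Rgs), and the alpha, beta and gamma subunits of G proteins (Gna, Gnb and Gng). The symbols matched 113 of 26312 genes, of which 26 were Pde, 10 Adcy, 9 Gucy, 6 protein kinase A, 2 protein kinase G, 23 Rgs, 16 Gna, 8 Gnb and 13 Gng genes. Some carry a class symbol without the class function: Gnb2l1 encodes the scaffold protein RACK1, Gnb1l a WD-repeat protein, Pde4dip a centrosomal and Golgi anchoring protein, and Rgs7bp and Rgs9bp are binding partners of RGS proteins.

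A receptor that binds its ligand loads GTP onto a G protein alpha subunit and frees the beta-gamma pair. Gs switches adenylyl cyclase on and Gi holds it down, while Gq raises calcium through phospholipase C. RGS proteins speed the hydrolysis of GTP by alpha subunits of the Gi and Gq families and so shorten the signal. Cyclic AMP acts largely through protein kinase A, cyclic GMP made by guanylyl cyclase under nitric oxide acts largely through protein kinase G, and phosphodiesterases degrade both messengers. In the uterus, cyclic AMP and cyclic GMP relax the smooth muscle of the wall, Gq-coupled receptors for oxytocin and prostaglandins contract it, and cyclic AMP takes part with progesterone in the differentiation of the stroma.

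All animals were ovariectomised females, rested for 2 weeks and 10 weeks of age. Holtzman Sprague Dawley (HSD) and Brown Norway (BN) rats received progesterone at 40 µg per g of body weight under the skin, or the vehicle sesame oil, and the uterus was taken 9 h later. There were 3 animals in each of the 4 groups and 1 polyA-selected library per animal, so the groups were HSD oil, HSD progesterone, BN oil and BN progesterone. Removal of the ovaries was shared by all groups, and the whole organ was used, so that a smaller number of cells of a type and less RNA per cell cannot be told apart.

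The libraries held 11763894 to 19033254 reads assigned to genes, and 20.0% to 25.7% of those reads lay in introns. Of the 113 genes, 98 passed the filter on low counts and were tested; the other 15, among them Gnat3, Pde6g, Pde6h, Rgs8, Rgs13 and Gucy2c, had at most 8 reads in any library. Levels are given as CPM, the read count of a gene scaled to the depth of its library with TMM factors, in the order of replicates 1, 2 and 3, and as mean ± SD with n = 3. Changes are log2 fold changes ± an approximate standard error from edgeR's quasi-likelihood test. The p-values were adjusted by the Benjamini-Hochberg method over all 15697 genes tested, and a gene with an adjusted p below 0.05 was called. Smooth muscle markers, 9 genes that include Myh11 and Cnn1, had summed levels of 8272 to 18269 CPM, and edgeR called 0 of the 9 under progesterone in either strain (1 in HSD and 0 in BN had an unadjusted p below 0.05; DESeq2 called 0, and limma voom 1 and 2). The lowest sum was that of HSD progesterone replicate 3, where the median log2 deviation of these markers from their mean over the 12 libraries was -0.71, and that of 5 pericyte markers was -1.06. Barcodes were not shared between the groups, so an effect of barcode cannot be told apart from strain or treatment. How the libraries were batched is not known from the barcodes.

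In HSD, 32 of the 98 tested genes were called between progesterone and oil, 12 higher and 20 lower. That is 32.7% against 39.1% of all tested genes, so the family was not called more often than the background. In BN, 22 were called, 8 higher and 14 lower, which is 22.4% against 25.8% of all tested genes. Falling genes outnumbered rising ones in both strains. In HSD 20 of the 98 fell and 12 rose, where 18.7% of all tested genes fell and 20.3% rose. In BN 14 of the 98 fell and 8 rose, where 11.8% fell and 14.0% rose. The share that fell was thus only slightly above that of all tested genes, and the share that rose was below it. These differences in shares were not tested. The median log2 change of the 98 was -0.13 in HSD, against -0.02 over all tested genes, and -0.06 in BN, against -0.01.

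The strains have no library in common in these 2 comparisons, but both come from 1 fit with a shared estimate of the spread. The 8 genes that rose in BN were 66.7% of those that rose in HSD and all of the BN list. The 12 that fell in both strains were 60% of the HSD list and 85.7% of the BN list. The same overlap was not computed over all tested genes, so these shares have no background beside them. No gene was called in opposite directions. Only Gna14 and Gng12 were called in BN and not in HSD. The strain difference of the progesterone change was itself tested with edgeR, and 0 of the 98 genes were called, against 0.0510% of all tested genes; 8 of the 98 had an unadjusted p below 0.05, and DESeq2 and limma voom also called 0.

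**Figure D1:**
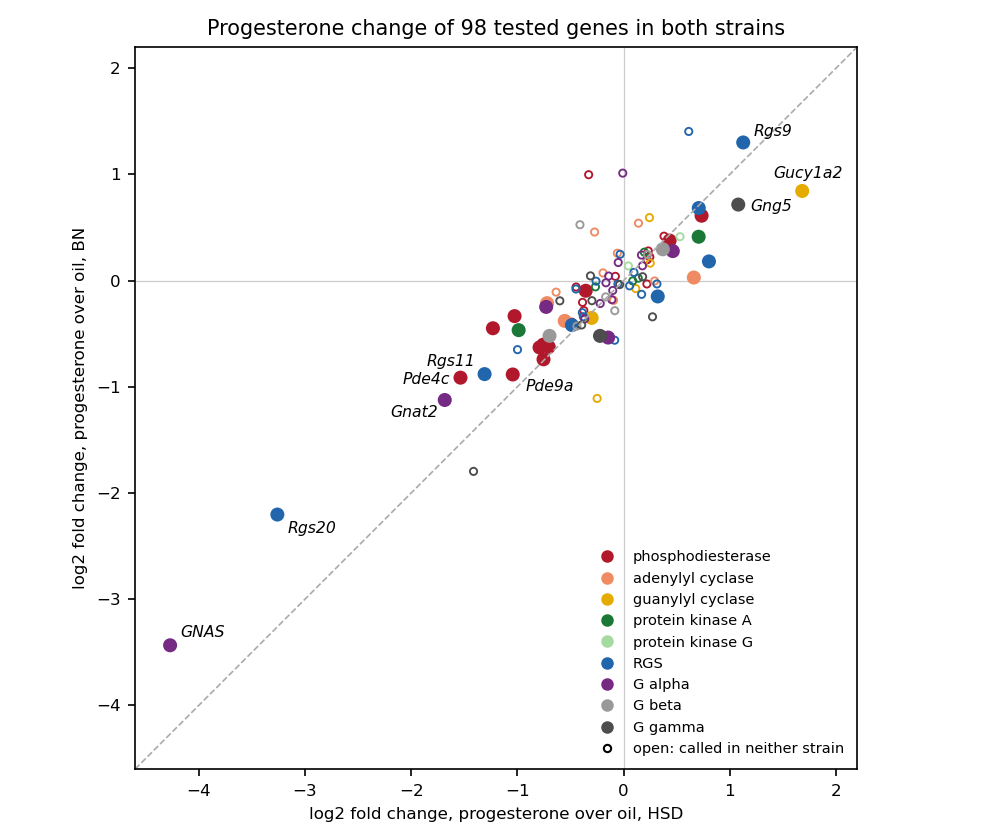
Log2 fold change of the 98 tested genes under progesterone in HSD (x axis) and in BN (y axis), coloured by class; large filled points were called in at least 1 strain, small open points in neither, and the dashed line marks equal change. The 20 genes called in both strains lie in the lower left and upper right parts of the plot, with GNAS and Rgs20 farthest down.

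The promoters of 3 genes described below are shown as sequence context: Pde5a, which fell in both strains, Rgs9, which rose in both, and Gnao1. Among the promoters searched for the set, only that of Gnao1 held the full cyclic AMP response element. The sequences are from RefSeq on build GRCr8 and run from 250 bases before to 50 bases after the start of the gene, 5′ to 3′ on the gene's strand. Capitals mark the response element TGACGTCA, which begins 121 bases before the start of Gnao1.
Pde5a, chr2:213543776-213544075, forward strand: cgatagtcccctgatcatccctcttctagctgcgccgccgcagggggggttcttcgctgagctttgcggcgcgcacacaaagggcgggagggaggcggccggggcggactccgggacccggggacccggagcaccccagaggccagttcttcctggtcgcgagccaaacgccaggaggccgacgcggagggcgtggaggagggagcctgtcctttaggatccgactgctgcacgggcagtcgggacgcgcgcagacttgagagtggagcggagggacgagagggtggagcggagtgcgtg
Rgs9, chr10:94770338-94770637, reverse strand: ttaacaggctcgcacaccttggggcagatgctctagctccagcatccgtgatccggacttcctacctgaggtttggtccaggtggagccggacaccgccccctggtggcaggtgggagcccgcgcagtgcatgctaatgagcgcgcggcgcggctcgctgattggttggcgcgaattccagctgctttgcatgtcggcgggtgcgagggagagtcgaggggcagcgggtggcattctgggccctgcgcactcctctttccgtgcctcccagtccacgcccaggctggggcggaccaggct
Gnao1, chr19:11198388-11198687, reverse strand: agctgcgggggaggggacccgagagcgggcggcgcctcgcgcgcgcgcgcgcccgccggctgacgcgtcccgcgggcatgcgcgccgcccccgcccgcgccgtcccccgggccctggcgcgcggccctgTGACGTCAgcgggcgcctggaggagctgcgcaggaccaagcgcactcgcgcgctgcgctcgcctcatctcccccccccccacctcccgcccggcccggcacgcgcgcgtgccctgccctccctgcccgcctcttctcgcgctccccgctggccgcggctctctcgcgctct
Promoters of 82 of the 113 genes were matched, and 2 motifs were searched on both strands. Pde4c, Pde7b, Pde9a, Pde6d, Rgs11, Rgs20, Gnat2, Gnai3 and the row GNAS, all called in both strains, had no matched promoter and were not searched. Only 1 promoter was searched per gene, although some have several, such as Pde4d with 5. Rows that share a symbol, such as Pde4d_1 and Pde4d_2, were matched to the same promoter, and Pde6g to that of Pde6h. The element TGACGTCA was found in 1 of the 82, against 612 of 33469 promoters (1.83%) in the whole RefSeq table. The full palindromic progesterone receptor element was found in 0 of the 82, against 147 of 33469 (0.439%). These counts describe the letters within these windows only.

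Phosphodiesterases degrade the cyclic nucleotides, and more of them fell than rose under progesterone. Of 22 tested, 9 fell and 2 rose in HSD, and 6 fell and 2 rose in BN, with median log2 changes of -0.38 and -0.15. The 9 are 40.9% of the class, against 18.7% of all tested genes lower in HSD, and the 6 are 27.3%, against 11.8% in BN; the difference in shares was not tested. All the Pde genes that edgeR called lower in a strain encode enzymes that hydrolyse cyclic nucleotides. Both that it called higher have another function: Pde6d encodes a carrier of prenylated proteins, and Pde12 a mitochondrial 2′-phosphodiesterase that acts on RNA. This division was drawn after the values were seen, and it holds for these calls only. DESeq2 and limma voom each called 3 higher in HSD, and limma voom 3 in BN. With the strains averaged, Pde3b, an enzyme for both messengers, was called higher too (edgeR, 0.23, adjusted p = 0.0178).

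Among the cyclic AMP enzymes, Pde4c had the largest drop. Its levels were 19.9, 20.4 and 16.6 CPM in HSD oil libraries and 6.17, 7.04 and 6.36 CPM under progesterone. In BN they were 18.6, 11.6 and 15.1 CPM under oil and 7.07, 8.0 and 8.96 CPM under progesterone. Oil and progesterone libraries did not overlap in either strain. Pde4c fell by 1.54 ± 0.18 on the log2 scale in HSD (edgeR, adjusted p = 3.4e-05) and by 0.91 ± 0.17 in BN (adjusted p = 0.00243).

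Pde4d, the row numbered 1 of 2 with this symbol, encodes another cyclic AMP-specific enzyme, and it differed between the strains under oil. Its levels were 37.6, 56.8 and 49.8 CPM in HSD oil and 20.3, 19.3 and 21.9 CPM in HSD progesterone. In BN they were 25.4, 29.0 and 29.4 CPM under oil and 18.7, 23.9 and 18.9 CPM under progesterone. The HSD oil libraries stood above all 9 others, and the other 3 groups lay closer together. Pde4d_1 fell by 1.23 ± 0.15 in HSD (edgeR, adjusted p = 6.18e-05) and by 0.45 ± 0.15 in BN (adjusted p = 0.0488), and under oil it was lower in BN by a log2 change of -0.78 ± 0.15 (adjusted p = 0.00955). Of its reads 71.3% lay in introns. On exon reads alone the HSD fall was -0.47 ± 0.16 (adjusted p = 0.0298), the BN change was -0.22 ± 0.16 (adjusted p = 0.325), and the strain difference under oil was 0.10 (adjusted p = 0.864), with the opposite sign.

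Pde7b, a cyclic AMP-specific enzyme, fell in both strains. It had 17.9, 15.8 and 15.6 CPM in HSD oil and 11.8, 9.40 and 8.13 CPM in HSD progesterone libraries. The BN libraries had 21.5, 20.5 and 17.4 CPM under oil and 10.8, 14.4 and 10.4 CPM under progesterone. Treatments did not overlap, and the log2 change was -0.75 ± 0.17 in HSD (edgeR, adjusted p = 0.00358) and -0.74 ± 0.17 in BN (adjusted p = 0.00601). Introns held 67.5% of the reads of Pde7b, and on exon reads alone the changes were -1.31 ± 0.25 in HSD (adjusted p = 0.00129) and -0.76 ± 0.24 in BN (adjusted p = 0.0386). Pde8b, a high-affinity cyclic AMP enzyme, was called in HSD alone. It went from 5.83 ± 1.19 to 2.88 ± 0.345 CPM there, a log2 change of -1.03 ± 0.22 (edgeR, adjusted p = 0.00295). In BN its levels were 5.96 ± 1.47 and 4.73 ± 0.201 CPM, with overlapping libraries and a change of -0.33 ± 0.21 (adjusted p = 0.28). Pde4a also fell in HSD, by 0.36 ± 0.11 (edgeR, adjusted p = 0.0218), and its BN value was -0.10 ± 0.11. Pde4b was at 16 ± 1.47 and 12.2 ± 2.11 CPM in HSD, a change of -0.39 ± 0.15 that was not called (edgeR, adjusted p = 0.056). Pde8a, with the highest RPKM of the cyclic nucleotide phosphodiesterases (15.3 over the 12 libraries; RPKM is scaled to exon length and to depth), had changes of -0.08 in HSD and 0.04 in BN. Pde7a was not called in either strain, with 0.22 and 0.20.

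Pde5a and Pde9a, enzymes for cyclic GMP, fell in both strains. Pde5a, the enzyme that sildenafil blocks, had 82.7, 65.0 and 70.5 CPM in HSD oil and 39.3, 42.0 and 44.6 CPM in HSD progesterone libraries. The BN libraries had 63.0, 63.1 and 71.3 CPM under oil and 44.6, 41.7 and 41.4 CPM under progesterone. All 6 oil libraries lay above all 6 progesterone libraries, and Pde5a fell by 0.79 ± 0.11 in HSD (edgeR, adjusted p = 0.000107) and by 0.63 ± 0.11 in BN (adjusted p = 0.00109). Pde9a, the enzyme with the highest affinity for cyclic GMP, had 34.2, 38.0 and 30.6 CPM in HSD oil and 14.8, 17.9 and 17.0 CPM in HSD progesterone libraries. It had 30.6, 32.7 and 37.4 CPM in BN oil and 16.7, 17.5 and 20.2 CPM in BN progesterone libraries. Here too the 6 oil libraries lay above the 6 others. The log2 change of Pde9a was -1.04 ± 0.13 in HSD (edgeR, adjusted p = 6.03e-05) and -0.88 ± 0.13 in BN (adjusted p = 0.000417).

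Of the enzymes that hydrolyse both messengers, Pde2a, which cyclic GMP activates, fell in both strains. Its levels were 78.3 ± 9.06 and 48.0 ± 13.1 CPM in HSD and 84.2 ± 8.88 and 54.6 ± 6.75 CPM in BN. The changes were -0.70 ± 0.17 (edgeR, adjusted p = 0.00638) and -0.62 ± 0.17 (adjusted p = 0.0184). Pde1b, a calcium and calmodulin-dependent enzyme, fell in HSD by 0.76 ± 0.25 (edgeR, adjusted p = 0.0275). Its HSD progesterone libraries were spread, at 15.8, 26.4 and 10.5 CPM with the lowest in replicate 3, and they lay below the oil libraries at 30.3, 27.3 and 31.9 CPM. In BN it was at 38.7 ± 3.48 and 25.5 ± 3.64 CPM, a change of -0.60 ± 0.24 (adjusted p = 0.0863). Pde1b overlaps Ppp1r1a on the opposite strand, and the counting strand is not stated. Pde1a, Pde3a, Pde3b and Pde10a were not called in either strain, with log2 changes in HSD of 0.23, -0.45, 0.25 and -0.33 and in BN of 0.28, -0.06, 0.22 and 1.00; the BN progesterone libraries of Pde10a were spread, at 9.35 ± 6.81 CPM.

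Summed RPKM describes the enzymes together, with no test. RPKM was recomputed from exon reads for these sums, because the deposited RPKM of Pde4d_1 counts its intron reads too (11.8 as deposited and 3.47 on exon reads, over the 12 libraries). The 9 cyclic AMP-specific genes summed to 43.8 ± 2.08 RPKM in HSD oil, 32.7 ± 2.89 in HSD progesterone, 45.4 ± 1.65 in BN oil and 40.8 ± 2.34 in BN progesterone. With the deposited values the sums were 59.8 ± 2.31, 37.9 ± 2.19, 52.9 ± 1.27 and 45.6 ± 1.56, so that the order of the strains under oil turned with the Pde4d_1 value. On exon reads every HSD progesterone library, at 29.7 to 35.4, lay below every BN progesterone library, at 38.4 to 43.1, and the oil libraries of the strains overlapped. Unlike CPM, these sums are scaled to depth without the TMM factors. The factors were 0.935 to 0.965 in HSD progesterone, 0.997 to 1.001 in BN progesterone and 1.027 to 1.038 in HSD oil libraries. Dividing by them would raise the HSD progesterone sums relative to the others. The part of scaling in the gap between the strains and in the HSD falls was not tested. The 5 cyclic GMP-specific genes summed to 26.4 ± 2.64 and 13.1 ± 1.10 RPKM in HSD and to 26.0 ± 2.03 and 14.3 ± 1.88 in BN, with overlap between the strains under each treatment. The 7 enzymes for both messengers summed to 47.9 ± 4.66 and 39.4 ± 5.07 RPKM in HSD and to 49.6 ± 4.14 and 44.5 ± 3.46 in BN. The 5 Pde genes of other function, among them Pde6d, Pde12 and Pde4dip, summed to 26.8 ± 0.939 and 32.9 ± 0.313 RPKM in HSD and to 28.0 ± 1.30 and 33.4 ± 0.179 in BN. Pde12 rose by 0.73 ± 0.12 in HSD (edgeR, adjusted p = 0.000437) and 0.61 ± 0.12 in BN (adjusted p = 0.00299), and Pde6d by 0.43 ± 0.09 (adjusted p = 0.00284) and 0.38 ± 0.09 (adjusted p = 0.0106).

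Some of these calls ended when 1 library was left out. The HSD call of Pde1b ended without replicate 1 or 3 of either HSD group (edgeR, adjusted p 0.0633 to 0.0906), and that of Pde4a without HSD oil replicate 1 or 3 or HSD progesterone replicate 3 (0.0566 to 0.0715). In BN, Pde4d_1 was lost in 7 of the 12 fits that each left out 1 library (adjusted p 0.0507 to 0.134), and Pde2a and Pde6d were lost without replicate 1 of BN oil or replicate 2 of BN progesterone (0.0653 to 0.071 for Pde2a and 0.0524 to 0.0538 for Pde6d).

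**Figure D2:**
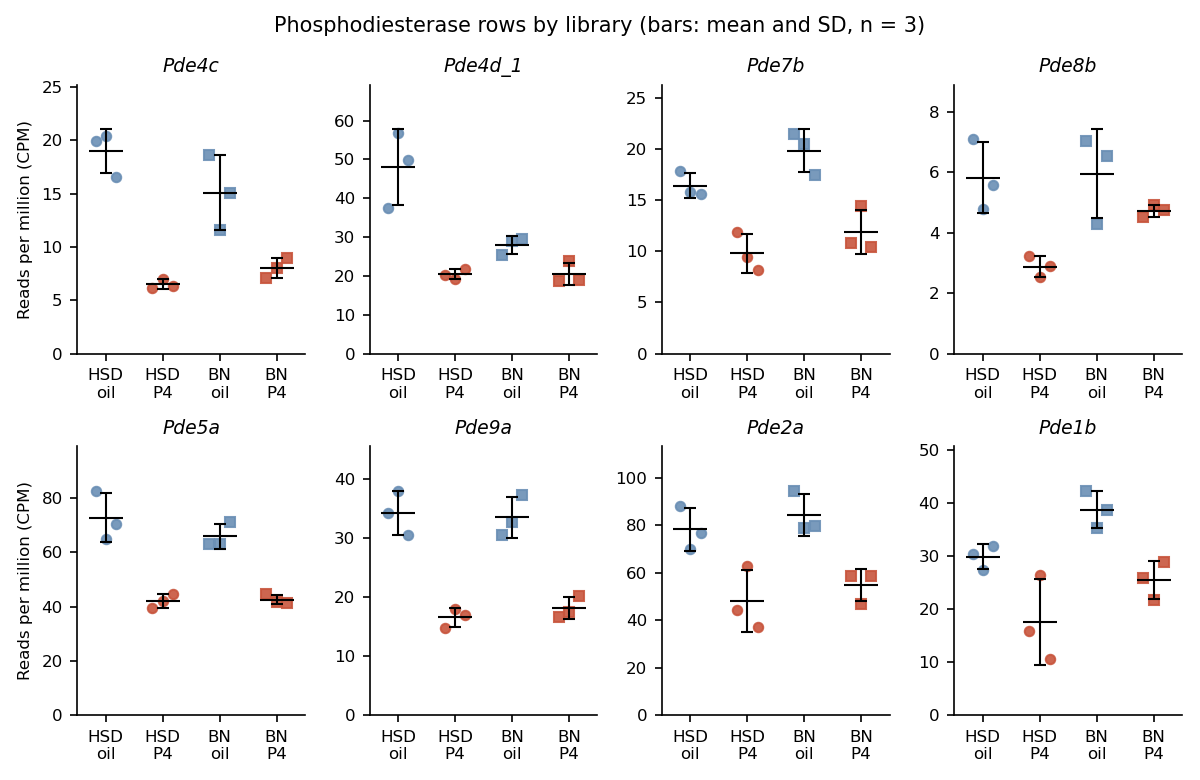
CPM (y axis) of 8 phosphodiesterase genes in each library, for HSD (circles) and BN (squares) under oil (blue) and progesterone (red, P4); bars are mean and SD, n = 3. Pde5a and Pde9a separate oil from progesterone in both strains, while the HSD oil libraries of Pde4d_1, at 37.6 to 56.8 CPM of reads mostly in introns, stand above every other group.

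Of 10 adenylyl cyclases, which make cyclic AMP, 2 (20%) fell and 1 (10%) rose in HSD, against 18.7% and 20.3% of all tested genes. In BN edgeR called 0 of 10, against 25.8% of all tested genes. There 0 had an unadjusted p below 0.05, and the other count tools called 0 (DESeq2) and 1 (limma voom). Adcy6, the highest of the class at 26.2 RPKM and an isoform inhibited by calcium, had 240.0, 201 and 212 CPM in HSD oil and 133, 168 and 94.7 CPM in HSD progesterone libraries. The groups did not overlap, with the lowest value in HSD progesterone replicate 3, and Adcy6 fell by 0.72 ± 0.19 (edgeR, adjusted p = 0.0108). In BN the libraries overlapped, at 183 ± 33.4 and 158 ± 24.1 CPM, with a change of -0.21 ± 0.19 (adjusted p = 0.462). Only 41.4% of the reads of Adcy6 were uniquely placed and it overlaps Ddn on the same strand. Adcy3 was at 28.5 ± 2.85 and 19.4 ± 5.6 CPM in HSD, a fall of 0.55 ± 0.20 (edgeR, adjusted p = 0.0444), and that call ended in 9 of 12 fits without 1 library, HSD progesterone replicate 3 among them (0.0505 to 0.147).

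Adcy2 rose in HSD from 46.0 ± 3.57 to 72.7 ± 11.4 CPM, by 0.66 ± 0.16 (edgeR, adjusted p = 0.00507), and was at 58.1 ± 13.8 and 59.3 ± 2.80 CPM in BN. Of its reads 90.5% lay in introns, and on exon reads the HSD value was 0.07 ± 0.19 (adjusted p = 0.795). Adcy4, Adcy5, Adcy7 and Adcy9 were not called. Adcy5, next in level at 8.65 RPKM, had log2 changes of -0.19 in HSD and 0.07 in BN.

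Of 6 guanylyl cyclase genes tested, 1 rose and 1 fell (16.7% each) under progesterone in HSD, and 1 (16.7%) fell in BN. Of all tested genes 20.3% rose and 18.7% fell in HSD, and 11.8% fell in BN. Members of the class were also called between the strains. Under oil, 10 of the 98 genes were called between BN and HSD, against 5.69% of all tested genes, and 3 of the 10 were guanylyl cyclases, of 6 tested. Under progesterone 7 of the 98 were called, against 5.73%, and 2 of them were guanylyl cyclases. These strain comparisons use the same libraries as the treatment comparisons above. Under oil 7 were higher and 3 lower in BN, where 2.34% of all tested genes were higher and 3.34% lower. Under progesterone all 7 were higher, against 2.43% of all tested genes higher and 3.31% lower.

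Gucy1a3 and Gucy1b3 encode the alpha 1 and beta 1 subunits of soluble guanylyl cyclase, the nitric oxide receptor. Both lie on the reverse strand of chromosome 2, where Gucy1b3 ends at 200433787 and Gucy1a3 starts at 200453505 on build Rnor_5.0. Whether their strain differences are separate was not tested. Gucy1a3 had 151, 146 and 132 CPM in HSD oil and 120.4, 114 and 114 CPM in HSD progesterone libraries. Its BN levels were 226, 255 and 268 CPM under oil and 204, 193 and 190.4 CPM under progesterone. All 6 BN libraries lay above all 6 HSD libraries, and within each strain oil lay above progesterone. Gucy1a3 was higher in BN by 0.80 ± 0.09 under oil (edgeR, adjusted p = 0.000295) and 0.75 ± 0.09 under progesterone (adjusted p = 0.000455). Progesterone lowered it by 0.30 ± 0.09 in HSD (adjusted p = 0.0224) and by 0.35 ± 0.09 in BN (adjusted p = 0.0151). These treatment calls ended without HSD oil replicate 1 or 2 or HSD progesterone replicate 2 (0.0549 to 0.104), and without BN oil or progesterone replicate 3 (0.0509 to 0.0668).

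Gucy1b3 was at 19.8 ± 1.75 CPM in HSD oil, 21.5 ± 5.93 in HSD progesterone, 33.9 ± 1.58 in BN oil and 32.1 ± 5.09 in BN progesterone. It was higher in BN under oil by 0.77 ± 0.18 (edgeR, adjusted p = 0.0243), a call that ended without any 1 of the 6 oil libraries (0.0536 to 0.0959), and the value under progesterone was 0.58 ± 0.18 (adjusted p = 0.081). Progesterone gave 0.12 in HSD and -0.08 in BN. Gucy2g, a receptor-type guanylyl cyclase, had few reads, at 0.918 ± 0.466 and 1.10 ± 0.188 CPM in HSD and 2.23 ± 0.238 and 3.36 ± 0.470 CPM in BN. The strains did not overlap, and the difference was 1.27 ± 0.33 under oil (edgeR, adjusted p = 0.039) and 1.62 ± 0.32 under progesterone (adjusted p = 0.0101). The call under oil ended in 9 of 12 fits without 1 library, and that under progesterone without BN progesterone replicate 1 (adjusted p = 0.0597).

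Gucy1a2, the alpha 2 subunit, was called higher under progesterone in HSD, by 1.68 ± 0.38 (edgeR, adjusted p = 0.00403). Its HSD libraries had 18.9, 40.3 and 20.6 CPM under oil and 145, 42.0 and 70.7 CPM under progesterone, the highest in replicate 1. Introns held 98.6% of its reads, and on exon reads the value was 0.46 ± 0.39 (adjusted p = 0.376).

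Of 6 protein kinase A genes, 1 rose and 1 fell (16.7% each) in HSD and 1 (16.7%) rose in BN, all of them regulatory subunits. Of all tested genes 20.3% rose and 18.7% fell in HSD, and 14.0% rose in BN. Prkar2b, the RII beta subunit, had 29.0, 29.1 and 35.9 CPM in HSD oil and 53.0, 47.1 and 53.4 CPM in HSD progesterone libraries. Its BN levels were 31.7, 35.9 and 36.9 CPM under oil and 51.1, 42.4 and 45.5 CPM under progesterone. The treatments did not overlap in either strain, and Prkar2b rose by 0.71 ± 0.12 in HSD (edgeR, adjusted p = 0.000495) and by 0.41 ± 0.12 in BN (adjusted p = 0.0212). The BN call ended without any 1 of BN oil replicates 1 to 3 or BN progesterone replicates 1 and 3 (0.054 to 0.123). Prkar1b, the RI beta subunit, fell in HSD from 21.1 ± 2.61 to 10.7 ± 3.51 CPM, by 0.99 ± 0.21 (edgeR, adjusted p = 0.00292). In BN it was at 12.4 ± 1.78 and 9.00 ± 0.857 CPM, a change of -0.47 ± 0.22 (adjusted p = 0.136).

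The most abundant regulatory subunit by RPKM, Prkar1a (94.5), had changes of 0.14 in HSD and 0.02 in BN. The catalytic subunit genes Prkaca and Prkacb, at 23.3 and 25.2 RPKM, had changes of -0.26 and 0.09 in HSD and -0.06 and 0.00 in BN, with adjusted p of 0.262 or more by edgeR. Of the 2 protein kinase G genes, edgeR called 0 for treatment in either strain; 1 had an unadjusted p below 0.05 in each strain, and 1 was called by DESeq2 in HSD and 1 by limma voom in BN. Prkg1, the smooth muscle form, was at 40.0 ± 5.07 and 41.2 ± 5.37 CPM in HSD and 40.7 ± 2.08 and 44.8 ± 4.18 CPM in BN, and its changes were 0.05 and 0.14.

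Prkg2, a membrane-bound form, differed between the strains. It had 8.20, 8.48 and 13.7 CPM in HSD oil and 12, 15.8 and 15.8 CPM in HSD progesterone libraries. It had 30.3, 27.4 and 30.9 CPM in BN oil and 47.0, 37.1 and 33.8 CPM in BN progesterone libraries, so that every BN library lay above every HSD library. The log2 difference was 1.54 ± 0.20 under oil (edgeR, adjusted p = 0.000617) and 1.43 ± 0.20 under progesterone (adjusted p = 0.00108). Introns held 51.2% of its reads, and the call under oil ended with exon reads alone and with RPKM, with adjusted p up to 0.124 over the alternatives. Epithelial markers were also different between the strains, with 3 of 10 lower in BN under oil and 2 under progesterone, and their part in these results was not tested.

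**Figure D3:**
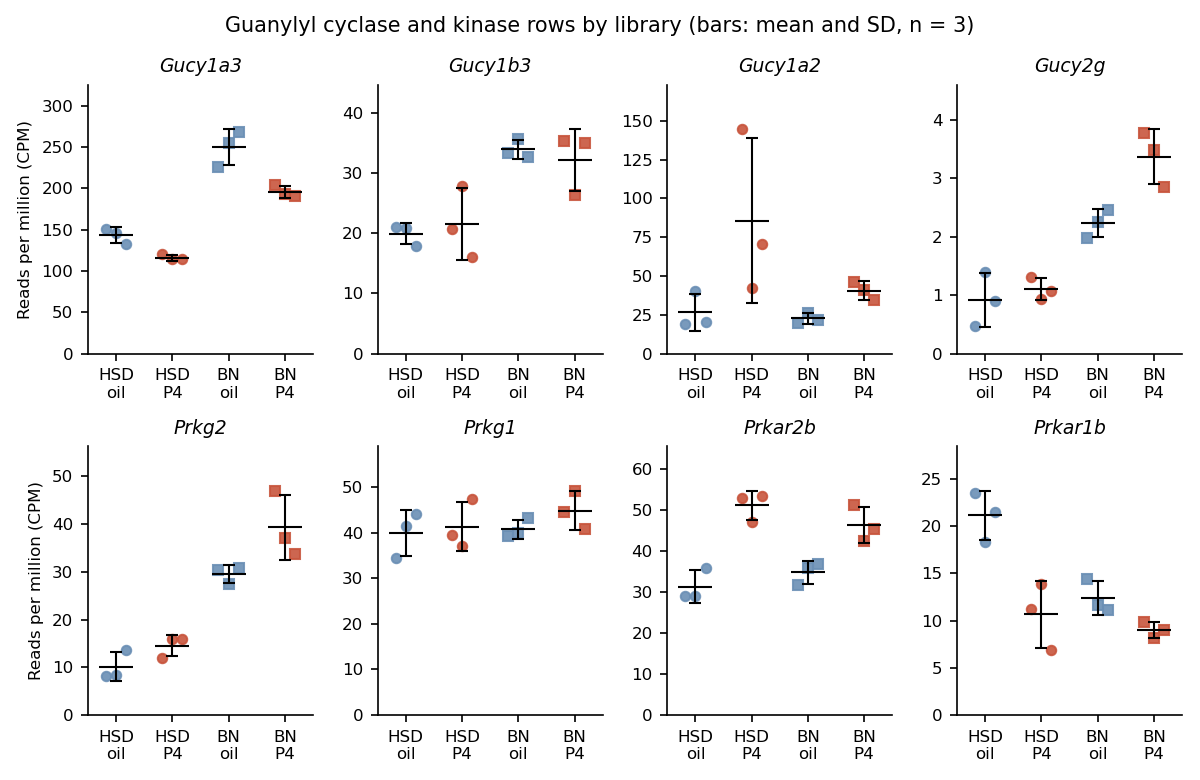
CPM (y axis) of 4 guanylyl cyclase and 4 kinase genes in each library, for HSD (circles) and BN (squares) under oil (blue) and progesterone (red, P4); bars are mean and SD, n = 3. Gucy1a3, Gucy2g and Prkg2 separate the strains, and Prkar2b separates the treatments.

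Of 20 RGS genes tested, 4 (20%) rose and 3 (15%) fell in HSD, and 2 (10%) rose and 3 (15%) fell in BN. Of all tested genes 20.3% rose and 18.7% fell in HSD, and 14.0% rose and 11.8% fell in BN. Within a subfamily of RGS proteins the members went in opposite directions. Rgs20, of the subfamily that acts on Gz and Gi, had 17.5, 9.98 and 7.15 CPM in HSD oil and 0.696, 1.32 and 1.47 CPM in HSD progesterone libraries. In BN it had 8.06, 11.3 and 9.42 CPM under oil and 1.85, 2.16 and 2.21 CPM under progesterone. The oil libraries of each strain lay well above its progesterone libraries. Rgs20 fell by 3.26 ± 0.35 in HSD (edgeR, adjusted p = 1.77e-05) and by 2.2 ± 0.32 in BN (adjusted p = 0.000411). Introns held 60.8% of its reads, and both calls were also made on exon reads (adjusted p 0.000581 and 0.00372). Its relative Rgs19 had 11.9 ± 0.623 and 19.5 ± 4.5 CPM in HSD and 10.7 ± 0.874 and 17.1 ± 1.77 CPM in BN. Rgs19 rose by 0.71 ± 0.16 (edgeR, adjusted p = 0.0039) and 0.68 ± 0.16 (adjusted p = 0.00858). Rgs17, the other relative, was near 1 CPM and not called.

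The subfamily that pairs with G protein beta 5 was divided in the same way. Rgs11 had 69.1, 77.7 and 62.3 CPM in HSD oil and 23.7, 26.4 and 34.1 CPM in HSD progesterone libraries. The BN libraries had 54.3, 48.7 and 53.4 CPM under oil and 25.1, 29.0 and 30.8 CPM under progesterone. All 6 oil libraries lay above all 6 progesterone libraries, and Rgs11 fell by 1.31 ± 0.14 in HSD (edgeR, adjusted p = 1.92e-05) and by 0.88 ± 0.14 in BN (adjusted p = 0.000709). Rgs9, known from photoreceptors and striatum, had 29.2, 45.1 and 50.4 CPM in HSD oil and 83.1, 83 and 106 CPM in HSD progesterone libraries. It had 38.7, 36.1 and 27.6 CPM in BN oil and 81.0, 80.4 and 91.2 CPM in BN progesterone libraries. Here all 6 progesterone libraries were the higher ones, and Rgs9 rose by 1.13 ± 0.19 in HSD (edgeR, adjusted p = 0.000488) and by 1.30 ± 0.19 in BN (adjusted p = 0.000392). Introns held 74.4% of the reads of Rgs9, and on exon reads the changes were 1.01 ± 0.15 (adjusted p = 0.00027) and 1.21 ± 0.16 (adjusted p = 0.000173). RGS6 and Rgs7 of the same subfamily were not called in either strain, with -0.38 and -0.08 in HSD. In RPKM over the 12 libraries Rgs11 stood at 11 and Rgs9 at 6.53.

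Among the RGS proteins that act on Gi and Gq, Rgs3 fell in both strains, by 0.49 ± 0.13 in HSD (edgeR, adjusted p = 0.0104) and 0.42 ± 0.13 in BN (adjusted p = 0.0314). Its levels were 124 ± 10.6 and 88.3 ± 15.2 CPM in HSD and 154 ± 14.7 and 116 ± 10.9 CPM in BN; the HSD call ended without HSD oil replicate 1 (adjusted p = 0.050), and the BN call without replicate 1 of either BN group or replicate 2 of BN progesterone (0.0787 to 0.104). A second row in capitals, RGS3, lies within Rgs3 and was not called in either strain alone. Rgs4 rose in HSD, from 13.6, 7.83 and 13.0 CPM under oil to 18.8, 22.0 and 19.3 CPM under progesterone, by 0.80 ± 0.21 (edgeR, adjusted p = 0.00933). In BN it was at 20.3 ± 0.982 CPM under oil and 22.9 ± 5.58 CPM under progesterone, so the HSD oil libraries were the low group. Under oil BN exceeded HSD by 0.82 ± 0.21 (adjusted p = 0.0396), a call that ended in 7 of 12 fits without 1 library (0.0586 to 0.131), and under progesterone by 0.20 ± 0.21.

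Rgs5, abundant in pericytes and vascular smooth muscle, had the highest level of the class, 62.8 RPKM. It had 28.8, 23.0 and 24.7 CPM in HSD oil and 35.8, 30.0 and 29.9 CPM in HSD progesterone libraries. It had 48.0, 56.7 and 51.3 CPM in BN oil and 50.05, 44.5 and 46.0 CPM in BN progesterone libraries. All BN libraries lay above all HSD libraries, and Rgs5 was higher in BN by 1.03 ± 0.12 under oil (edgeR, adjusted p = 0.000262) and by 0.56 ± 0.12 under progesterone (adjusted p = 0.0159). The call under progesterone ended without BN progesterone replicate 1 or 3 (0.0672 to 0.105). The rise of Rgs5 under progesterone in HSD, 0.32 ± 0.12 (adjusted p = 0.0464), ended in 9 of 12 fits without 1 library (0.0506 to 0.177), and the BN value was -0.15 ± 0.12. Of 5 pericyte markers (Cspg4, Pdgfrb, Kcnj8, Abcc9 and Notch3), 2 fell in HSD and 3 in BN under progesterone. Their summed level was 511 to 690 CPM in HSD oil, 250.003 to 471 CPM in HSD progesterone, 649 to 768 CPM in BN oil and 381 to 542 CPM in BN progesterone libraries. Their part in the values of Rgs5 was not tested.

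Rgs22, a testis-associated RGS protein, differed between the strains. It had 10.7, 15.2 and 12.2 CPM in HSD oil and 8.17, 9.01 and 11.8 CPM in HSD progesterone libraries. It had 31.7, 37.8 and 40.3 CPM in BN oil and 27.1, 36.1 and 25.8 CPM in BN progesterone libraries, all above the HSD libraries. The difference was 1.52 ± 0.18 under oil (edgeR, adjusted p = 0.000356) and 1.61 ± 0.19 under progesterone (adjusted p = 0.000269). Rgs2, a selective inhibitor of Gq signalling, was not called, at 52.9 ± 3.32 and 59.5 ± 13.6 CPM in HSD and 63.3 ± 8.57 and 57.8 ± 14.3 CPM in BN. Rgs10 (35.2 RPKM), Rgs1 and Rgs16 were not called for treatment either.

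**Figure D4:**
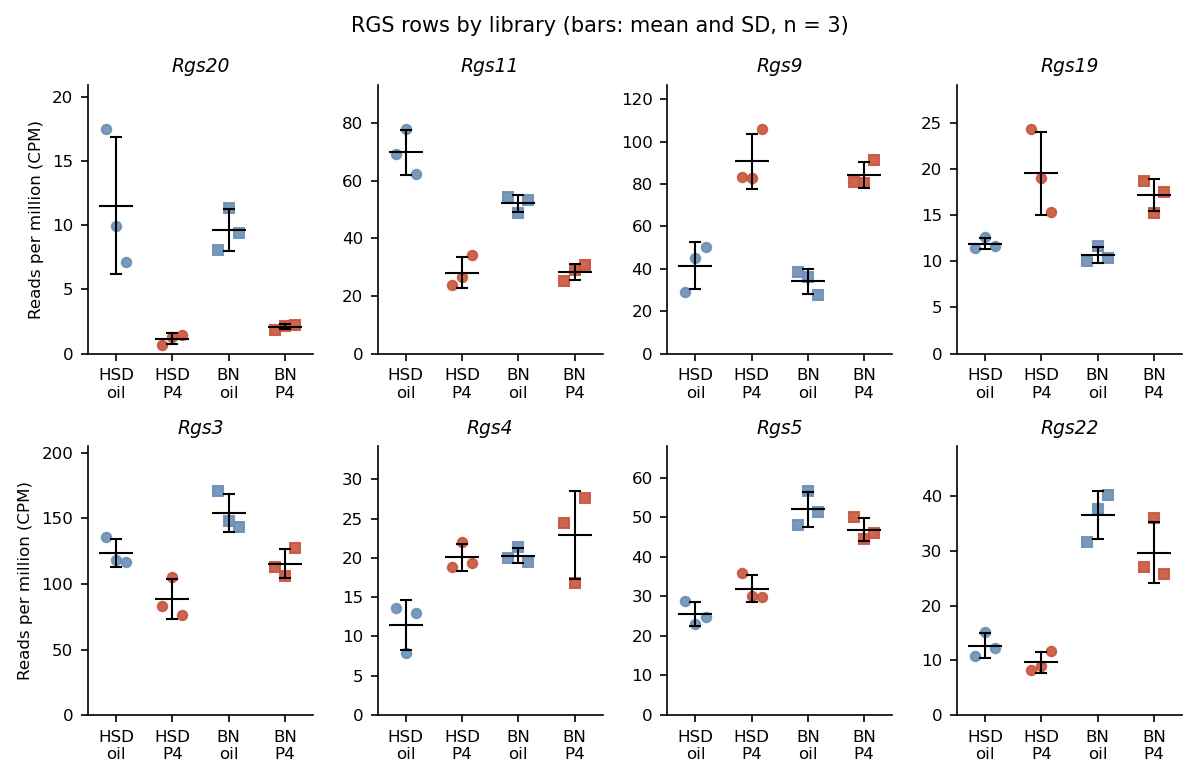
CPM (y axis) of 8 RGS genes in each library, for HSD (circles) and BN (squares) under oil (blue) and progesterone (red, P4); bars are mean and SD, n = 3. Rgs20 and Rgs11 are low and Rgs9 and Rgs19 high under progesterone in both strains, and Rgs5 and Rgs22 are higher in BN.

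Of 15 alpha subunit genes tested, 1 (6.67%) rose and 3 (20%) fell in each strain. Of all tested genes 20.3% rose and 18.7% fell in HSD, and 14.0% rose and 11.8% fell in BN. The abundant subunits were not called: Gnas, the Gs alpha subunit, stood at 456 RPKM on a row of short exon length, and Gnai2 at 170. Gnas was at 307 ± 45.9 and 348 ± 97.1 CPM in HSD and at 316 ± 34 and 349 ± 45.9 CPM in BN, with changes of 0.18 ± 0.19 and 0.14 ± 0.19. Gnai2 had -0.22 ± 0.19 in both strains, Gnaq -0.05 and 0.17, and Gna11 0.17 and 0.24. Gnai1 had -0.17 and -0.02.

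Gnai3, a Gi alpha subunit, rose. It had 141, 149 and 143 CPM in HSD oil and 186, 196 and 216 CPM in HSD progesterone libraries. In BN it had 152, 162 and 160.0 CPM under oil and 191, 194 and 189 CPM under progesterone. All progesterone libraries lay above all oil libraries. The rise was 0.46 ± 0.09 in HSD (edgeR, adjusted p = 0.001) and 0.28 ± 0.09 in BN (adjusted p = 0.0296), and the BN call ended in 8 of 12 fits without 1 library (0.0604 to 0.135) and with upper-quartile scaling or library size alone.

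Gnat2, the cone transducin alpha subunit, and a separate row in capitals, GNAS, fell in both strains at low counts. Gnat2, a neighbour of Gnai3 on chromosome 2, had 3.35, 5.37 and 3.91 CPM in HSD oil and 1.48, 0.660 and 1.83 CPM in HSD progesterone libraries. In BN it had 3.32, 3.52 and 3.36 CPM under oil and 2.14, 1.31 and 1.21 CPM under progesterone. Gnat2 fell by 1.68 ± 0.34 in HSD (edgeR, adjusted p = 0.00185) and by 1.12 ± 0.33 in BN (adjusted p = 0.0262), while Gnai3 beside it rose; the BN call ended in 5 of 12 fits without 1 library, all 5 of them BN libraries (0.0586 to 0.0984).

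The row GNAS is a single exon on chromosome 3, from 178426595 to 178427365 on build Rnor_5.0, 61839 bases before the Gnas row. It held 56, 13 and 32 reads in HSD oil and 1, 1 and 2 in HSD progesterone libraries. In BN it held 4, 6 and 2 reads under oil and 0, 0 and 1 under progesterone. Each oil library had more reads than any progesterone library of its strain, though BN oil replicate 3 and all 6 progesterone libraries were below the floor of 3 reads used here. Scaled to depth, the ratio of oil to progesterone was 21.1 in HSD (95% interval 7.98 to 78.8, counting error only, from 101 and 4 reads) and 14.7 in BN (2.17 to 628, from 12 and 1 reads). The edgeR adjusted p was 0.000353 in HSD and 0.0403 in BN, and 0.0154 for the lower level of BN under oil. The BN call ended in 6 of 12 fits without 1 library (0.0508 to 0.115), and the strain call ended without HSD oil replicate 1 or BN oil replicate 1 or 3 (0.064 to 0.0805).

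Gnao1, the Go alpha subunit whose promoter is printed above, fell in HSD by 0.73 ± 0.26 (edgeR, adjusted p = 0.0412). Its libraries overlapped narrowly, at 34.3, 24.6 and 30.6 CPM under oil and 18.4, 24.8 and 10.7 CPM under progesterone. Replicate 3 was the lowest, and the call ended in 6 of 12 fits without 1 library, that one among them (0.0532 to 0.13). Introns held 80.1% of its reads, and on exon reads the HSD change was -0.76 ± 0.27 (adjusted p = 0.0402). In BN it was at 23.5 ± 5.52 and 19.8 ± 2.94 CPM, a change of -0.25 ± 0.26. Gna14, a Gq-family subunit, fell in BN from 13.6 ± 0.691 to 9.41 ± 0.431 CPM, by 0.54 ± 0.14 (edgeR, adjusted p = 0.0135). In HSD it was at 9.93 ± 0.789 and 8.97 ± 1.45 CPM, a change of -0.15 ± 0.14, and the difference between the strain changes was -0.39 ± 0.20 (adjusted p = 0.733).

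Of 10 gamma subunit genes tested, 1 (10%) rose in HSD, and 1 rose and 1 fell (10% each) in BN. Of 7 beta subunit genes, 1 rose and 1 fell (14.3% each) in HSD and 1 (14.3%) rose in BN. Of all tested genes 20.3% rose and 18.7% fell in HSD, and 14.0% rose and 11.8% fell in BN. Gng5, a widely expressed gamma subunit, had 86.1, 99.5 and 83.2 CPM in HSD oil and 184, 149 and 235 CPM in HSD progesterone libraries. It had 83.3, 85.7 and 85.6 CPM in BN oil and 128, 151 and 139 CPM in BN progesterone libraries. All 6 progesterone libraries exceeded all 6 oil libraries. Gng5 rose by 1.08 ± 0.14 in HSD (edgeR, adjusted p = 9.52e-05) and by 0.72 ± 0.14 in BN (adjusted p = 0.00308). It overlaps Rpf1 on the opposite strand. Nuclear genes of oxidative phosphorylation had been listed as a sign of RNA quality. Of the 23, 21 (91.3%) rose in HSD and 11 (47.8%) in BN, against 20.3% and 14.0% of all tested genes. Their summed levels were 3162 to 3510 CPM in HSD oil and 4915 to 6285 in HSD progesterone libraries, highest in replicate 3. In BN they were 3141 to 3379 under oil and 3963 to 4560 under progesterone. The part of these genes in the result was not tested.

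Gng10, the most abundant gamma subunit at 133 RPKM, had changes of 0.18 ± 0.18 and 0.04 ± 0.18. Gng12 fell in BN, from 11.3 ± 0.577 to 7.88 ± 0.933 CPM, by 0.52 ± 0.17 (edgeR, adjusted p = 0.0367), and was at 9.93 ± 1.17 and 8.57 ± 1.74 CPM in HSD (-0.22 ± 0.17); the BN call ended in 5 of 12 fits without 1 library (0.063 to 0.111). Gng8 was lower in BN than in HSD under oil, by a log2 difference of -0.47 ± 0.11 (edgeR, adjusted p = 0.0316), a call that ended in 4 of 12 fits without 1 library (0.072 to 0.149). Introns held 76.2% of the reads of Gng8, and on exon reads this difference was -0.32 ± 0.21 (edgeR, adjusted p = 0.563), not called. Both Gng11 rows had under 2% uniquely placed reads and were not called, nor was Gng2.

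Gnb1 and Gnb2, both at 117 RPKM, are the main beta subunits here and were not called in either strain, with 0.23 and -0.17 in HSD and 0.25 and -0.15 in BN. Gnb4 had -0.44 and -0.43, also not called. Gnb5_1 was called higher in both strains, by 0.37 ± 0.09 and 0.30 ± 0.09 (edgeR, adjusted p 0.00634 and 0.0306). Only 17.1% of its reads were uniquely placed and 79.6% lay in introns, it overlaps Mapk6 and Leo1, and on exon reads the values were 0.06 ± 0.16 and 0.17 ± 0.16, neither called. Gnb1l fell in HSD by 0.70 ± 0.19 (edgeR, adjusted p = 0.013), from 13.2 ± 1.13 to 8.07 ± 1.88 CPM; introns held 68.0% of its reads, and on exon reads the value was -0.44 ± 0.28 (adjusted p = 0.239). Gnb2l1, at 771 RPKM the highest row of all, had -0.08 and -0.28 and was not called.

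**Figure D5:**
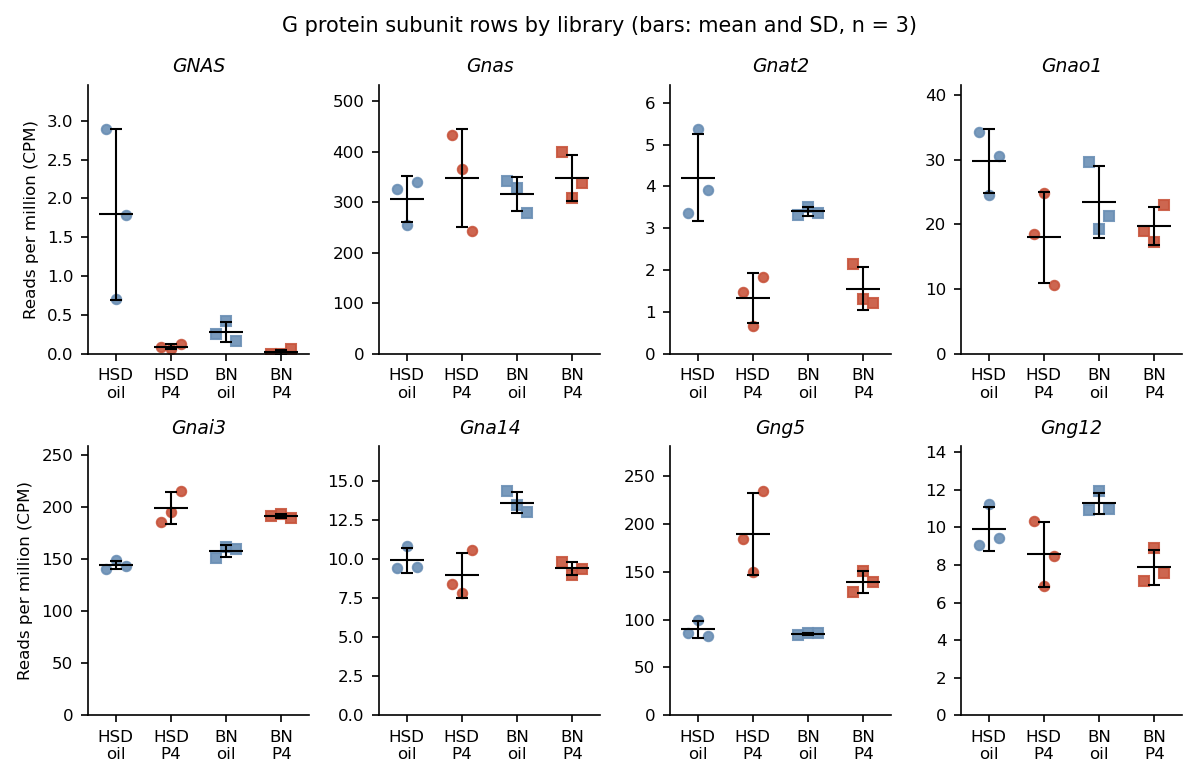
CPM (y axis) of 8 G protein subunit genes in each library, for HSD (circles) and BN (squares) under oil (blue) and progesterone (red, P4); bars are mean and SD, n = 3. Gng5 and Gnai3 are higher under progesterone in every library, Gnat2 is lower, and Gnas overlaps between groups.

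With the strains averaged, 43 of the 98 genes were called, 14 higher and 29 lower, against 48.4% of all tested genes (24.6% higher and 23.7% lower); this fit uses the same libraries as the 2 strain-wise ones. Genes called here and in neither strain alone were Pde3b, Gnb1 and Prkg2, which rose by 0.23, 0.24 and 0.47, and Pde4b, Gng8, Gnb4, RGS3, RGS6, Gng7 and Rgs22, which fell by 0.24 to 1.60. These averaged calls of Pde4b and Rgs22 each ended in 8 of 12 fits without 1 library (0.0512 to 0.0738 and 0.0537 to 0.101), those of Pde3b and Gng8 in 3, that of Gng7 in 2 and that of RGS3 in 1. On exon reads Gng8, RGS6 and Rgs22 were not called (adjusted p 0.625, 0.340 and 0.0983). Under progesterone 2 more phosphodiesterases were higher in BN, Pde3a by 0.75 ± 0.19 (edgeR, adjusted p = 0.0344) and Pde8a by 0.30 ± 0.08 (adjusted p = 0.0466). The call of Pde3a ended in 5 of 12 fits without 1 library (0.0531 to 0.177) and that of Pde8a in all 12 (0.0693 to 0.263). Introns held 52.8% of the reads of Pde8a, and on exon reads its difference was 0.36 ± 0.13 (edgeR, adjusted p = 0.152), not called.

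Receptors and other genes of the pathway, taken from lists chosen by role, were counted in the same fits; the shares to set them against are those of all tested genes, 20.3% higher and 18.7% lower in HSD and 14.0% higher and 11.8% lower in BN. Of 20 Gs-coupled receptors tested, 1 rose and 3 (15%) fell in HSD and 1 rose and 2 (10%) fell in BN. Of 31 receptors coupled to Gi or Gq, 4 rose and 8 (25.8%) fell in HSD and 3 rose and 8 (25.8%) fell in BN, with median log2 changes of -0.27 and -0.25. Lpar3, a lysophosphatidic acid receptor needed for embryo spacing in mice, rose in both strains. Its HSD level was 6.81 ± 1.5 CPM under oil and 38.2 ± 1.61 CPM under progesterone, and its BN level 10.7 ± 2.08 and 41.5 ± 13.3 CPM. Lpar3 rose by 2.48 ± 0.23 (edgeR, adjusted p = 5.92e-06) and 1.95 ± 0.22 (adjusted p = 7.08e-05). Tacr1, the substance P receptor, fell by 1.42 ± 0.22 in HSD (adjusted p = 0.000319) and 1.25 ± 0.22 in BN (adjusted p = 0.00124). S1pr3, a sphingosine 1-phosphate receptor, fell by 1.27 ± 0.29 (adjusted p = 0.00429) and 0.83 ± 0.29 (adjusted p = 0.0493), and the BN call ended in 8 of 12 fits without 1 library (0.0528 to 0.151).

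Adora1, the Gi-coupled adenosine A1 receptor, was at 1.5 ± 0.237 CPM in HSD oil and 0.0183 ± 0.0317 CPM in HSD progesterone, and at 1.70 ± 0.194 and 0.171 ± 0.113 CPM in BN; it was called lower in both strains (edgeR, adjusted p 2.11e-05 and 0.000212). Adra2c, a Gi-coupled adrenergic receptor, was at 1.54 ± 0.632 and 0.163 ± 0.0744 CPM in HSD and at 1.13 ± 0.817 and 0.273 ± 0.0858 CPM in BN, and was called lower in both (adjusted p 0.0019 and 0.0239), in BN with a loss in 5 of 12 fits without 1 library (0.0509 to 0.15). Htr4, a Gs-coupled serotonin receptor, fell in HSD from 23.9 ± 3.80 to 8.65 ± 3.53 CPM (edgeR, adjusted p = 0.000356) and was at 8.01 ± 0.256 and 6.31 ± 0.343 CPM in BN. The strain difference of the progesterone change was called by edgeR for 0 of the 20 Gs-coupled receptors, Htr4 included. Fshr in HSD and Crhr1 in BN were called lower at levels under 1 CPM, calls that ended in 4 and 5 of 12 such fits.

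Of 7 genes of nitric oxide and natriuretic peptide signalling, 1 rose and 2 fell in HSD and 1 rose in BN. Nppc, the C-type natriuretic peptide, ligand of a receptor guanylyl cyclase, rose in both strains. It was at 0, 0.161 and 0 CPM in HSD oil and 2.26, 4.40 and 2.77 CPM in HSD progesterone libraries. In BN it was at 0.0639, 0 and 0 CPM under oil and 0.174, 0.656 and 1.11 CPM under progesterone. The oil libraries were thus at or near 0, and the adjusted p by edgeR was 0.000127 in HSD and 0.0144 in BN; the BN call ended without BN oil replicate 2 or 3 or BN progesterone replicate 3 (0.0532 to 0.059). Of 21 effectors, 1 rose and 6 (28.6%) fell in HSD and 2 rose and 3 (14.3%) fell in BN. Hcn2 and Hcn3, channels opened by hyperpolarisation and tuned by cyclic AMP, fell in HSD by 1.31 ± 0.28 (adjusted p = 0.00277) and 1.04 ± 0.39 (adjusted p = 0.0491); the call of Hcn3 ended in 11 of 12 fits without 1 library (0.0581 to 0.119).

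Of 14 anchors of protein kinase A, 3 (21.4%) fell in HSD and 2 (14.3%) in BN. Sphkap, an anchor for the RI subunits, had 4.59, 10.1 and 7.88 CPM in HSD oil and 0.609, 0.275 and 0.354 CPM in HSD progesterone libraries (edgeR, adjusted p = 1.3e-05). In BN it was low in both groups, at 0.296 ± 0.179 and 0.322 ± 0.152 CPM, so that only the HSD oil libraries were high. The strain difference of the progesterone change was called by edgeR for 0 of the 14 anchors, Sphkap included.

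Of 20 CREB family and target genes, 5 (25%) rose and 2 fell in HSD and 4 (20%) rose in BN. Fos, an immediate early gene, had 5.47, 3.38 and 4.64 CPM in HSD oil and 11.7, 11.9 and 10.7 CPM in HSD progesterone libraries, and it was called by 1.34 ± 0.48 (edgeR, adjusted p = 0.0402). In BN it had 3.90, 5.98 and 2.95 CPM under oil and 5.04, 6.43 and 23.6 CPM under progesterone, a value of 1.45 ± 0.48 (adjusted p = 0.0436) with overlapping groups. Without BN progesterone replicate 3 the BN value was 0.40 (adjusted p = 0.366). The Fos calls ended in 7 (HSD) and 10 (BN) of 12 fits without 1 library. Nr4a3, an orphan nuclear receptor, had 1.70, 1.45 and 1.45 CPM in HSD oil and 2.96, 10.1 and 1.83 CPM in HSD progesterone libraries, a value of 1.71 ± 0.49 (edgeR, adjusted p = 0.0154). Replicate 2 stood apart, and without it the value was 0.63 (adjusted p = 0.106).

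Creb3l1, a membrane-bound transcription factor, was called higher in BN by 1.35 ± 0.35 (edgeR, adjusted p = 0.0139), a call that ended in 3 of 12 fits without 1 library (0.0531 to 0.0593). Pck1, an enzyme of gluconeogenesis also abundant in fat, had 0.384, 0.422 and 0.328 CPM in BN oil and 1.45, 0.590 and 2.48 CPM in BN progesterone libraries. It was called by 1.99 ± 0.62 (edgeR, adjusted p = 0.0334), and the call ended in 5 of 12 such fits (0.0732 to 0.161). Of 4 adipocyte markers tested, 3 were called higher in BN with a median log2 change of 1.78 over the 4, and 1 in HSD. The 6 adipocyte markers in the tables summed to 7.54 to 10.5 CPM in BN oil, 18.5 to 29.8 in BN progesterone, 7.71 to 14.6 in HSD oil and 34.5 to 35.8 in HSD progesterone libraries. Their part in the value of Pck1 was not tested.

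Of 18 receptor kinases, arrestins and exchange factors, 9 (50%) fell in HSD and 3 (16.7%) in BN. Gpsm3, a Gi alpha-binding regulator, fell by 1.21 ± 0.23 (adjusted p = 0.0013) and 0.76 ± 0.23 (adjusted p = 0.029), and the BN call ended in 5 of 12 fits without 1 library (0.0509 to 0.112).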

How the data were processed

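RNA was sequenced from the uterus of 12 rats, 3 per group, and groups were taken from the labels. The count of total gene reads, exons and introns together, was deposited by the authors for each library. RPKM was deposited by the authors too; recomputed from the deposited columns, it is exon reads over exon length and total gene reads, except in 360 to 385 of 26312 rows per library, which use total gene reads. Pde4d_1, Gng11_1, Gnb5_1 and Gnb5_2 are among those rows. Per the submitters' processing notes the build was Rnor_5.0; no aligner, counter or counting strand is named there or in the labels.

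The test of counts was edgeR 4.0.16 (R 4.3.3) with filterByExpr, TMM scaling and a robust quasi-likelihood fit over the 4 groups with 8 residual degrees of freedom, checked on simulated data. Standard errors were taken from the F statistic. Exon reads, uniquely placed reads, other scalings and filters, DESeq2 1.42.0, limma voom and limma on log2(RPKM + 0.1) (limma 3.58.1), fits of 2 groups and fits without each library were alternatives. The 113 genes, the lists and the naming rule (changes of at least 1 on the log2 scale, strain calls, the 2 highest RPKM per class and genes picked by role) were chosen with earlier results of these data known. Another 10 called genes were named after their values were seen, as was the grouping of phosphodiesterases by substrate. Intervals on read ratios are exact and cover counting error only, with a floor of 3 reads. The p-values set each change against the spread between animals within groups. That spread is estimated over the 4 groups together, with information shared across genes.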

Additional observations from a re-analysis of the deposited data

How the results depend on the processing

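Counts of called genes moved by more than 1.5 times in 3 of the 6 comparisons. For progesterone in BN (22 called), limma voom called 37 and leaving out 1 library gave 12 (without BN oil replicate 1) to 27. For BN against HSD under oil (10), exon reads gave 6, log2 RPKM 5 and leaving out 1 library 5 to 15. Under progesterone (7), DESeq2 gave 11, limma voom 16, log2 RPKM 4, a fit of the 2 groups alone 4 and leaving out 1 library 3 to 14. For progesterone in HSD leaving out 1 library gave 27 to 38, averaged over strains 38 to 48, and for the strain difference of the change 0 to 0. In BN the share of higher calls was 36.4%, 50% with log2 RPKM (9 of 18) and 46.7% in the fit of the 2 groups alone (14 of 30). Scaling by library size alone moved the median log2 change of all genes in HSD from -0.02 to -0.14. Signs reversed for Adcy2 with log2 RPKM, to -0.0131 in HSD and -0.0509 averaged over strains, and for Pde4d_1 under oil with exon reads, to 0.10; the cause was not tested. Over the alternatives run, 20 of the 32 HSD calls and 9 of the 22 BN calls were kept in every one. No paired analysis was possible because neither the animal nor the replicate numbers tie a library of a group to one of another. Genes under about 1 CPM rest on few reads, the counting strand is unknown, and most reads lay in introns for 10 of the genes called under progesterone in a strain (Adcy2, Gnao1, Gnb1l, Gnb5_1, Gucy1a2, Pde12, Pde4d_1, Pde7b, Rgs9 and Rgs20). On exon reads 6 of their 10 HSD calls and 4 of their 6 BN calls were made too. Of calls between the strains for genes with most reads in introns, 1 of 4 under oil and 2 of 3 under progesterone were made on exon reads. Exon-read RPKM, and leaving out libraries for pathway genes and averaged calls, were added after seeing the data.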
